A study of Mus musculus with 9 samples.

Results

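The Egr, Nr4a and Npas4 genes code for transcription factors whose own RNA is made within minutes of neuronal firing. They were taken by symbol from the gene count table of a mouse hippocampal RNA-seq experiment, and 8 of its 54532 genes had these names: Egr1, Egr2, Egr3, Egr4, Nr4a1, Nr4a2, Nr4a3 and Npas4. All 8 passed the filter on low counts, as did 19782 genes in total. The mice carried a maternal deletion of Ube3a (N4 Ube3am-/p+, a model of Angelman syndrome backcrossed onto a 129 background so that sound could provoke seizures). Each received an intracerebroventricular injection of Ant-134, an antisense inhibitor of the microRNA miR-134, or of a scrambled control oligonucleotide (Scr) at postnatal day 21 (P21). A sound stimulus that can provoke seizures was given to both groups at P22, P24 and P26, and the hippocampus was collected 24 h after the last one, so only mice alive at that time could be sampled. There were 5 Ant-134 and 4 Scr libraries. Both groups thus share the Ube3a deletion, the injection and the sound stimulus. The seizures that followed need not have been alike, since fewer or milder seizures were the effect the study looked for, and the labels do not give them per mouse. For genes induced by firing, an effect of Ant-134 and one of the seizures each mouse had cannot be told apart. No uninjected, unstimulated or wild-type library was part of the comparison. The sexes of the individual mice are not given in the labels. The comparison asks whether these activity genes stood at different levels after miR-134 inhibition.

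As background, calcium entry and growth factor signals phosphorylate CREB and the SRF partners of the ELK family, and these bind sites in the promoters of immediate early genes without any need for new protein. The EGR proteins are zinc finger factors that bind GC-rich sites, the NR4A proteins are orphan nuclear receptors, and NPAS4 is a basic helix-loop-helix factor that is induced by calcium entry more selectively than the others. In the hippocampus the RNA of most of them climbs within an hour of a seizure and then declines, so a sample taken a day later shows a late or resting level.

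RefSeq promoters (GRCm38.p6) were matched for 6 of the 8 genes, in 10 windows, with 1 each for Egr4, Nr4a1, Nr4a2, Nr4a3 and Npas4 and 5 for Egr2. The CRE core site, the letters TGACG on either strand, stood in 8 of the 10 windows, at least 1 for each of the 6 genes, and in 20.8% of all 32851 promoters of the same length. The full CRE, TGACGTCA, was in none of the 10 windows and in 1.79% of all promoters. The CArG box, the site that SRF binds, was in 4 of the 5 windows of Egr2 and of no other gene here, against 1.63% of all promoters. The Egr2 windows that start at 67537619, 67537620 and 67537680 on chr10 overlap. They hold the same CArG box and the same core sites, so these window counts are not counts of separate sites. An EGR site, GCGNGGGCG on either strand, stood in the windows of Nr4a1 and Nr4a2 and in 5.55% of all promoters. The NR4A site (NBRE), AAAGGTCA, was in 0 of the 10 windows and in 1.51% of all promoters, and the core letters of the NPAS4 site, TCGTG, in 1 of the 10, that of Egr4, and in 16.04% of all promoters. A match is a description of letters only. Shown are the stretches just before a RefSeq transcript start of the gene with the lower level under Ant-134 (Nr4a2), of the pair of genes with 1 library apart (Egr2 and Egr4), and of Nr4a1, with the CRE core sites and the CArG box in capitals. They lie at chr2:57124004-57124253 (minus strand), chr10:67537619-67537868 (plus strand), chr6:85513590-85513839 (minus strand) and chr15:101266596-101266845 (plus strand), and none of their bases is in an annotated exon of the gene. Those of Nr4a2 and Egr4 lie before the whole gene, while those of Egr2 and Nr4a1 lie inside the annotated gene, before a start downstream of the first one.
Nr4a2: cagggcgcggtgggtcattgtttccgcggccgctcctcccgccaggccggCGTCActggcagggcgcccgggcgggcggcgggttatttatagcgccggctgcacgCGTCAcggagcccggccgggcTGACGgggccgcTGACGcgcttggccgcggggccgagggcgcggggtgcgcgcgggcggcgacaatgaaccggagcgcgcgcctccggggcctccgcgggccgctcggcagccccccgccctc
Egr2: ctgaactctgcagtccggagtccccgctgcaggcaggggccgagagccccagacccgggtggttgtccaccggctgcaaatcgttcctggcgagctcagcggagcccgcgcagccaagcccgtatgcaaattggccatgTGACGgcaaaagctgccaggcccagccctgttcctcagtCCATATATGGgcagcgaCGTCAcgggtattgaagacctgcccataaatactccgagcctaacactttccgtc
Egr4: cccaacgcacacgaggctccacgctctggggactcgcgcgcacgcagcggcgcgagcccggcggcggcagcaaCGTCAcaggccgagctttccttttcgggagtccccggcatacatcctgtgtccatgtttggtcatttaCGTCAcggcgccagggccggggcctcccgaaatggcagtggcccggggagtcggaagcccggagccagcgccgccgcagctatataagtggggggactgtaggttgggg
Nr4a1: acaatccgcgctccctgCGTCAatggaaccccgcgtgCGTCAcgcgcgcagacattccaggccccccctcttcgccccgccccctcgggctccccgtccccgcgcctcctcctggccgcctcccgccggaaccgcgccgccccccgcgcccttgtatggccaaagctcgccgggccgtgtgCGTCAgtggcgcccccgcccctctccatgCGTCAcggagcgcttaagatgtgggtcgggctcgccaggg
Nr4a1 and Nr4a2 each had 4 core sites in this stretch, and Egr4 and Egr2 each had 2. In Egr2 the core sites stood on either side of the CArG box.

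The target of the drug, miR-134-5p, is read from chr12:109734145-109734166 (plus strand, GRCm38.p6), and its seed, in capitals, pairs with CAGTCAC or, shifted by a base, AGTCACA in a 3′ UTR. Of the 8 genes, 1 had such a site in its longest annotated 3′ UTR (GENCODE M21), against 17.0% of 21020 genes. That gene was Egr3, and its site, at base 75 of 2645 of the 3′ UTR, lies at chr14:70079980-70079986 (plus strand), within the stretch chr14:70079972-70079993 that is printed. Both are shown because the inhibitor acts through this pairing, with the 7 bases of the site in capitals.
miR-134-5p: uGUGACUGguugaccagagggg
Egr3 site: gggaaagcCAGTCACtgaggcg

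The libraries held between 28583298 and 41978113 counts. CPM are counts scaled to the normalised library total of the genes tested. In these units 3 counts, taken as the floor, correspond to between 0.0709 and 0.107 CPM. The lowest count of any of the 8 genes in any library was 49, for Egr2, and the floor covers counting error only. Markers of excitatory neurons were abundant in all of them, with Camk2a between 3191 and 4158 CPM and Slc17a7 between 1661 and 1837 CPM. Among the marker lists of other tissue, the summed level of 7 choroid plexus genes ran from 70.3 to 2561 CPM with high libraries in both groups. Y-linked genes were near the floor in Ant-134 replicates 1 and 4 and Scr replicate 3 (mean log2 CPM −2.46 to −1.47, against 5.21 to 5.38 in the others). Low Y-linked counts mark female mice, and Scr replicate 3 was the only such Scr library. In bulk tissue, fewer cells of a type and less RNA per cell cannot be told apart.

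One library stood apart in these genes. Ant-134 replicate 5 was the highest of all 9 libraries for 5 of the 8 genes (Egr1, Egr2, Egr4, Nr4a1 and Npas4), whereas it was the highest for 16.01% of all genes tested. For that reason the group difference of each of the 8 genes is also given without it.

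None of the 8 genes differed between the groups after adjustment over all genes, and 7 of them had slightly higher and 1 a lower fitted level in Ant-134. With edgeR's quasi-likelihood test and Benjamini-Hochberg adjustment the adjusted p of every one was 0.998. Beside it, a two-sided exact permutation test of the difference of mean log2 CPM, over all 126 divisions of the 9 libraries, was run for each gene. At an unadjusted p below 0.05, 1 of the 8 passed, Nr4a2, which was lower. Across all genes 827 of 19782 passed that level, 4.18%, of which 294 were higher and 533 lower in Ant-134. After adjustment 0 genes passed (0%), and DESeq2 without a prior filter, but with its own default filtering, called 16. The libraries of the groups overlapped in all 8 genes, and in all tested genes they did not overlap in 305, or 1.54%. The median log2 fold change of the 8 genes was 0.079, against 0.0026 over all genes tested, and it was −0.0014 without Ant-134 replicate 5. Other libraries moved this median as well, to 0.021 without Scr replicate 3 and to 0.12 without Ant-134 replicate 4.

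**Figure D1:**
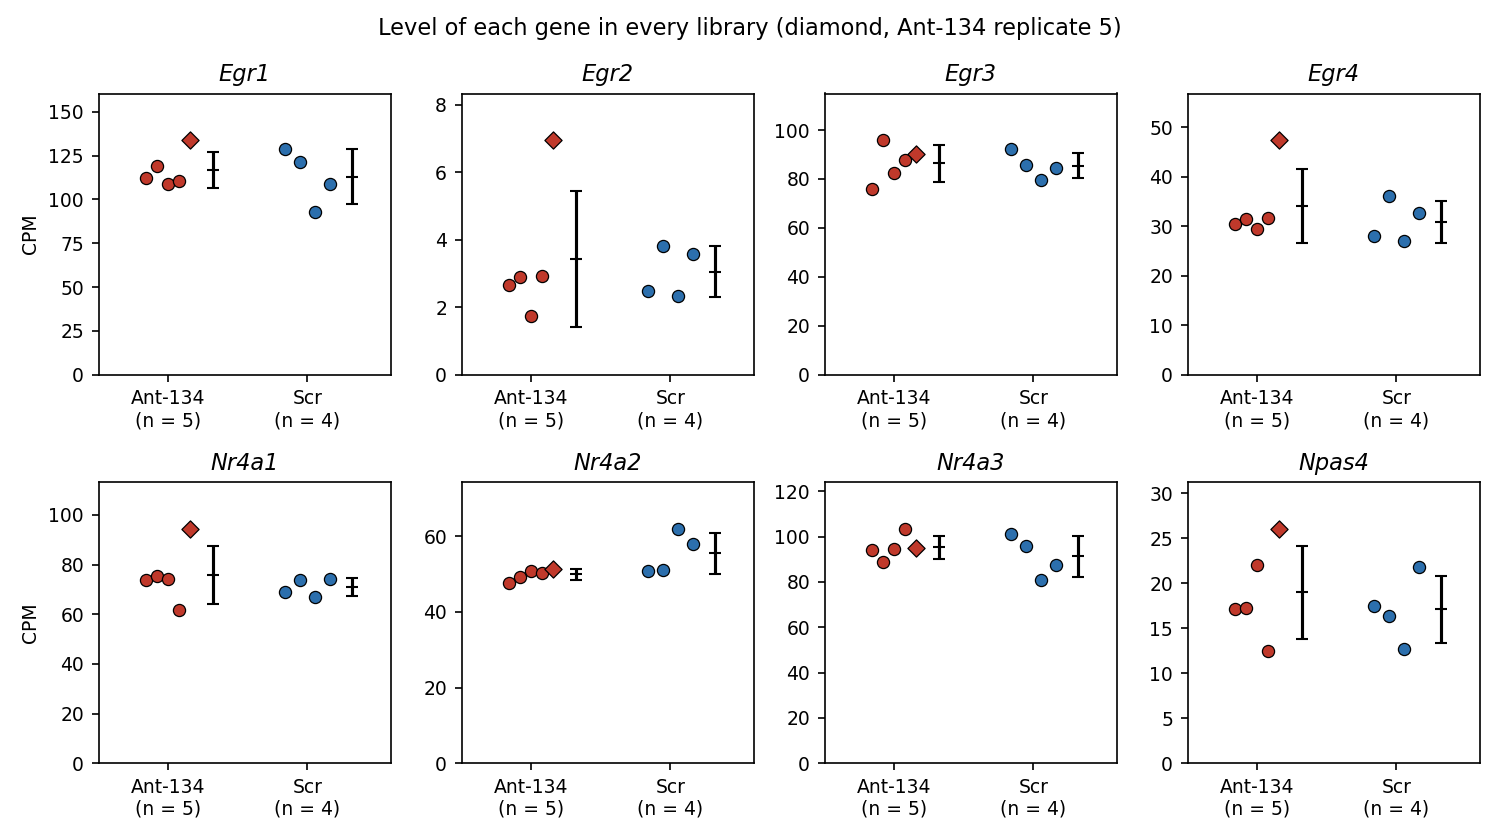
Level of each of the 8 genes in CPM (vertical axes from 0) in the 5 Ant-134 and 4 Scr libraries, with the mean and SD of each group to the right of its points. The groups overlap in every panel, and the diamond, Ant-134 replicate 5, is the highest point for Egr1, Egr2, Egr4, Nr4a1 and Npas4.

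Among the EGR genes, Egr1 (also known as Zif268 or Krox24) is a factor of memory consolidation and synaptic plasticity. Its level was 112, 119, 109, 111 and 134 CPM in Ant-134 replicates 1 to 5 and 129, 121, 92.9 and 109 CPM in Scr replicates 1 to 4. The highest value was in Ant-134 and the lowest in Scr, but Scr replicates 1 and 2 were above the other 4 Ant-134 libraries. The log2 fold change was 0.051 ± 0.093 (SE, edgeR, adjusted p = 0.998, exact permutation p = 0.627), and −0.0018 without Ant-134 replicate 5.

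Egr2 (Krox20), a factor best known for hindbrain segmentation and Schwann cell myelination, was the scarcest of the 8. It measured 2.65, 2.88, 1.74, 2.91 and 6.95 CPM in Ant-134 and 2.48, 3.83, 2.35 and 3.57 CPM in Scr. Ant-134 replicate 5 was the highest, and Ant-134 replicate 3 the lowest, of all 9 libraries. The group difference was 0.16 ± 0.37 on the log2 scale (SE, edgeR, adjusted p = 0.998). The difference of mean log2 CPM was smaller, at 0.039 (exact permutation p = 0.929). The edgeR difference turned to −0.26 without Ant-134 replicate 5, since the other 4 Ant-134 libraries all lay below Scr replicates 2 and 4.

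Egr3, which the same stimuli induce and which is needed for muscle spindle development, was the only member with a miR-134 site. It measured 75.7, 95.8, 82.5, 87.6 and 90.1 CPM in Ant-134 and 92.1, 85.8, 79.4 and 84.6 CPM in Scr, so the values of both groups were interleaved. The log2 fold change was 0.015 ± 0.063 (SE, edgeR, adjusted p = 0.998, exact permutation p = 0.905), the smallest of the 8, and −0.00093 without Ant-134 replicate 5. The gene with the site shown above thus differed by less than the spread between libraries.

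Egr4, a brain-enriched member of the family, measured 30.4, 31.4, 29.5, 31.7 and 47.4 CPM in Ant-134 and 28.02, 36.1, 27.0 and 32.6 CPM in Scr. In Ant-134, 4 libraries fell within the range of Scr and replicate 5 lay above every other library. The difference was 0.14 ± 0.15 on the log2 scale (SE, edgeR, adjusted p = 0.998, exact permutation p = 0.556), and −0.0086 without Ant-134 replicate 5.

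The NR4A receptors bind DNA as monomers or as dimers with RXR. Nr4a1 (Nur77) measured 73.9, 75.3, 74.2, 61.6 and 94.4 CPM in Ant-134 and 69.0, 73.7, 66.9 and 74.0 CPM in Scr. The highest and the lowest library were both in Ant-134. The log2 fold change was 0.097 ± 0.099 (SE, edgeR, adjusted p = 0.998, exact permutation p = 0.492), and 0.0065 without Ant-134 replicate 5.

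Nr4a2 (Nurr1), which is needed for midbrain dopamine neurons and is also made in the hippocampus and deep cortex, was the 1 gene below an unadjusted p of 0.05. It measured 47.7, 49.3, 50.9, 50.3 and 51.4 CPM in Ant-134, or 49.9 ± 1.47 (SD, n = 5), and 50.9, 51.2, 61.9 and 57.8 CPM in Scr, or 55.5 ± 5.38 (SD, n = 4). Scr replicates 3 and 4 were above all Ant-134 libraries, while Scr replicates 1 and 2 lay within the top of the Ant-134 range. The level in Ant-134 differed by −0.15 ± 0.060 on the log2 scale (SE, edgeR, unadjusted p = 0.0229, adjusted p = 0.998). The exact permutation test of this gene alone gave p = 0.0317. The unadjusted edgeR p rose to 0.0518 without Ant-134 replicate 1, to 0.0708 without Scr replicate 4 and, with a difference of −0.094, to 0.113 without Scr replicate 3. Without Ant-134 replicate 5 the difference was −0.16, still below an unadjusted p of 0.05. With 1 of 8 genes past this level beside 4.18% of all genes, and none after adjustment, the difference did not stand against the number of genes tested.

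Marker sums of other cells were set beside these values. The summed level of 7 microglia markers was 368 to 402 CPM in Ant-134 and 416 to 474 CPM in Scr. The groups did not overlap in this sum, as in 1.54% of all genes tested. Of the 7 markers, 4 were lower in Ant-134 at an unadjusted edgeR p below 0.05, and none had 0 counts in every library. Across all genes tested, 4.18% passed that level, of which 533 of 827 were lower in Ant-134, and 0 passed adjustment. The sum of 5 cortex and subiculum markers was 118 to 140 CPM in Ant-134 and 120 to 141 CPM in Scr, and it was 138 and 141 CPM in Scr replicates 3 and 4, the libraries highest in Nr4a2. It was 140 CPM in Ant-134 replicate 3, where Nr4a2 was at 50.9 CPM. The part of either in the Nr4a2 values was not tested.

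Nr4a3 (Nor1) measured 94.2, 89.0, 94.4, 103 and 95.1 CPM in Ant-134 and 101, 95.7, 80.8 and 87.2 CPM in Scr. Its lowest values were Scr replicates 3 and 4, the same libraries in which Nr4a2 was highest. The log2 fold change was 0.061 ± 0.062 (SE, edgeR, adjusted p = 0.998, exact permutation p = 0.357), and 0.062 without Ant-134 replicate 5. It ranged from 0.0076 without Scr replicate 3, its lowest library, to 0.11 without Scr replicate 1.

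Npas4, which sets inhibitory synapse number on active excitatory neurons, measured 17.1, 17.3, 21.995, 12.5 and 26.04 CPM in Ant-134 and 17.5, 16.3, 12.7 and 21.8 CPM in Scr. The range of Scr lay within that of Ant-134, whose replicates 4 and 5 were the lowest and the highest library. The difference was 0.15 ± 0.23 on the log2 scale (SE, edgeR, adjusted p = 0.998, exact permutation p = 0.619), and 0.011 without Ant-134 replicate 5. Other single libraries moved it as well, to 0.034 without Scr replicate 3, 0.27 without Ant-134 replicate 4 and 0.29 without Scr replicate 4.

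**Figure D2:**
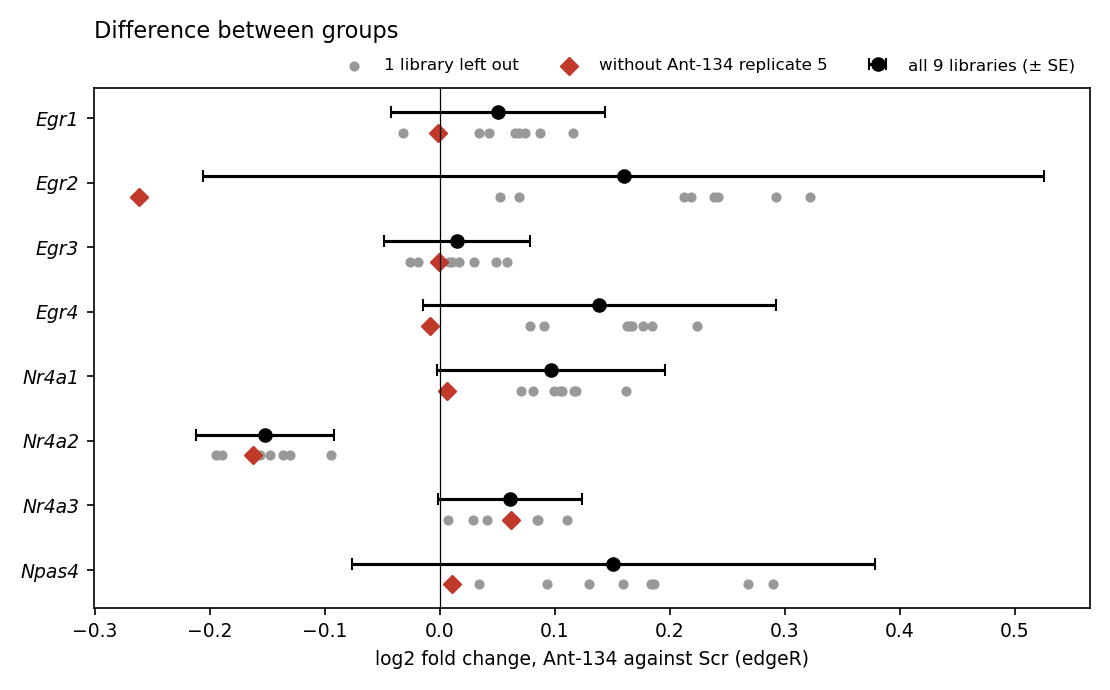
Log2 fold change of each gene in Ant-134 against Scr (horizontal axis, edgeR), with all 9 libraries (black, ± SE) and with 1 library left out at a time (grey, or red diamond where Ant-134 replicate 5 was left out). Without Ant-134 replicate 5 the value of Egr2 moves from 0.16 to −0.26, those of Egr1, Egr3, Egr4, Nr4a1 and Npas4 move to between −0.0086 and 0.011, and Nr4a2 stays below 0 in every case.

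The genes differed in how far they stood above the others in Ant-134 replicate 5. Relative to the mean of the other 8 libraries, Egr2 was higher by 1.31 on the log2 scale (2.49-fold), above 99.8% of all genes tested. Npas4 and Egr4 were higher by 0.63 and 0.62, Nr4a1 by 0.41 and Egr1 by 0.25. Egr3 (0.081), Nr4a3 (0.032) and Nr4a2 (−0.026) stayed near the other libraries. The same library was also the highest for 14 of 30 other immediate early genes, a list that includes the AP-1 genes and synaptic effectors. Fos, the core AP-1 subunit, stood at 31.0 CPM there and at 10.1 to 15.9 CPM in the other 8. Its relative Fosb was at 13.8 against 4.36 to 6.52 CPM, Junb at 90.7 against 49.3 to 64.1 CPM, and Arc, which codes for a protein of synaptic endocytosis, at 151 against 68.1 to 122 CPM. Others of that list did not follow: Homer1 was at 116 CPM, within 104 to 133 CPM, and Atf3 at 1.03 CPM was below the 1.71 to 2.26 CPM of the others. These values describe 1 library and carry no test.

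**Figure D3:**
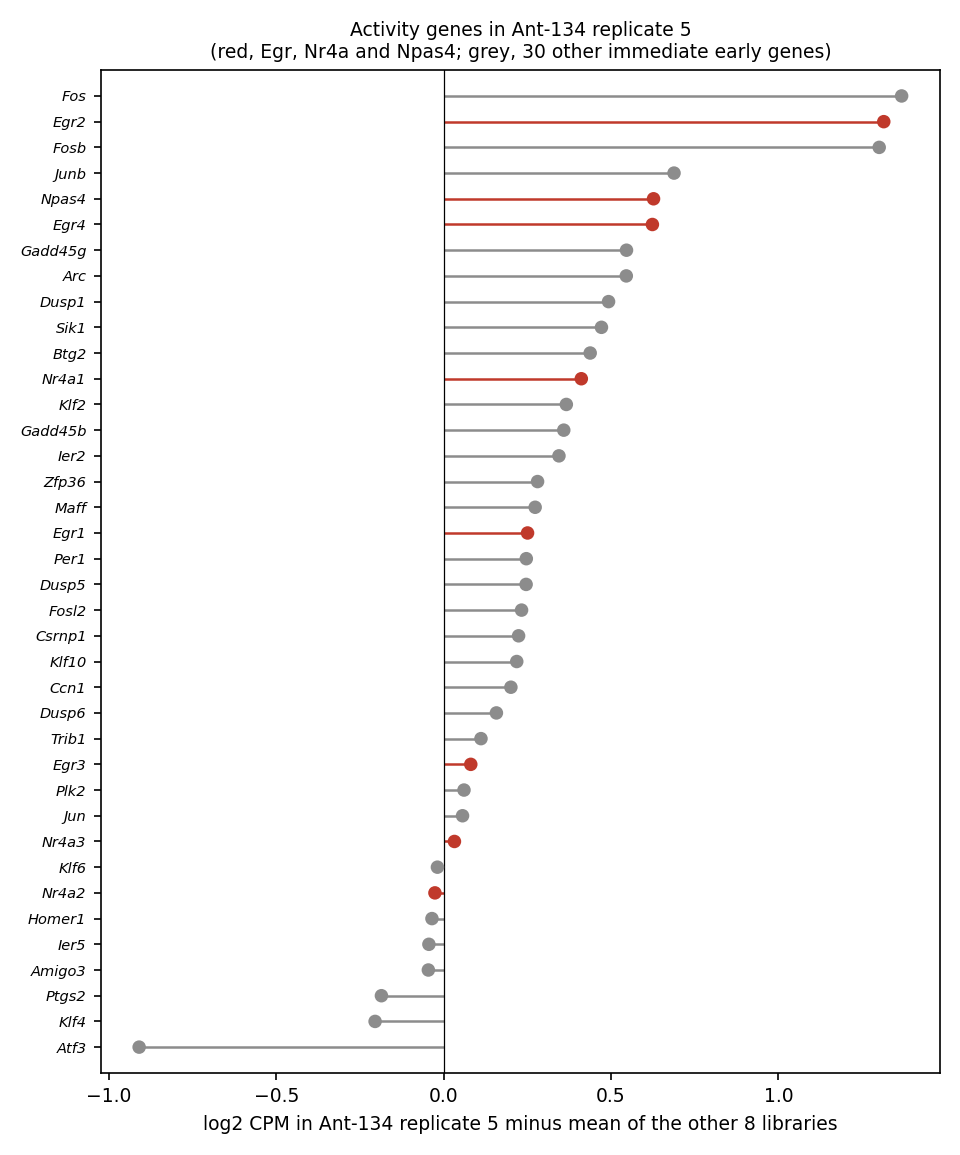
Difference in log2 CPM between Ant-134 replicate 5 and the mean of the other 8 libraries (horizontal axis) for the 8 Egr, Nr4a and Npas4 genes (red) and 30 other immediate early genes (grey), in order of size. Egr2 (1.31) lies between Fos (1.37) and Fosb (1.30), and Egr3, Nr4a3 and Nr4a2 lie near 0.

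In that library the summed level of 5 of 12 marker lists lay outside the range of the other 8 libraries, and that of the other 7, dentate granule cells (327 CPM, within 280 to 352 CPM), CA3 pyramidal cells, astrocytes, microglia, endothelium, choroid plexus and erythrocytes, lay within it. The summed level of 6 oligodendrocyte markers was 7252 CPM, against 8532 to 12128 CPM in the others, and that of 7 pan-neuronal markers 7795 CPM, against 8126 to 9359 CPM. The 5 CA1 pyramidal cell markers summed to 699 CPM, against 580 to 676 CPM, although only 1 of the 5 was itself highest there and their median difference from the other libraries was 0.036 on the log2 scale. In all, 4.01% of counts were mitochondrial, the highest share of the 9. It was also the lowest library for the 5 cortex and subiculum markers (118 CPM, against 120 to 141 CPM) and the 5 thalamus markers (73.8 CPM, against 77.7 to 136 CPM). Their part in the high values of Egr2, Egr4, Npas4 and Nr4a1 was not tested. At the other end, Scr replicate 3 was the lowest library for 3 of the 8 genes (Egr1, Egr4 and Nr4a3) and the highest for Nr4a2.

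The spread between libraries of 1 group was unequal across the genes. The biological coefficient of variation fitted by edgeR, a relative SD after removal of counting error, was 37.0% for Egr2 and 23.3% for Npas4, above 96.7% and 82.3% of all genes tested. It was 15.95% for Egr4, above the median of 11.4% over all genes, and 10.6% for Nr4a1 and 10.1% for Egr1, close to that median. Egr3, Nr4a3 and Nr4a2 had 7.50%, 7.41% and 7.28%, in the lower range of all genes. The SD of log2 CPM around the group means, pooled over both groups, was 0.58 for Egr2 and fell to 0.34 without Ant-134 replicate 5. That of Egr4 fell from 0.25 to 0.14 and that of Nr4a1 from 0.17 to 0.11, whereas that of Npas4 went from 0.37 to 0.32.

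Levels were compared between genes per gene length, in the deposited FPKM (fragments per kilobase, scaled to the library total). Over the 9 libraries, Egr1 had 25.4 ± 2.72 FPKM (SD, n = 9), Nr4a1 20.8 ± 2.57 and Egr3 19.3 ± 1.42. Next came Nr4a3 with 15.5 ± 1.15, Egr4 with 15.1 ± 2.84 and Nr4a2 with 12.8 ± 1.09 FPKM. Npas4 had 5.48 ± 1.35 and Egr2 0.951 ± 0.444 FPKM. Within libraries, Egr1 was above Nr4a1 in 9 of 9, Egr3 above Nr4a3 in 9, Nr4a2 above Npas4 in 9 and Npas4 above Egr2 in 9. Nr4a1 was above Egr3 in 6 of 9 libraries and Nr4a3 above Egr4 in 6 of 9, so neither pair could be ordered beyond its spread, and Egr4 was above Nr4a2 in 8. Egr1, the most abundant, and Nr4a1 kept overlapping ranges, and the step to Npas4 (2.33-fold below Nr4a2) and that to Egr2 (5.76-fold below Npas4) were the largest.

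**Figure D4:**
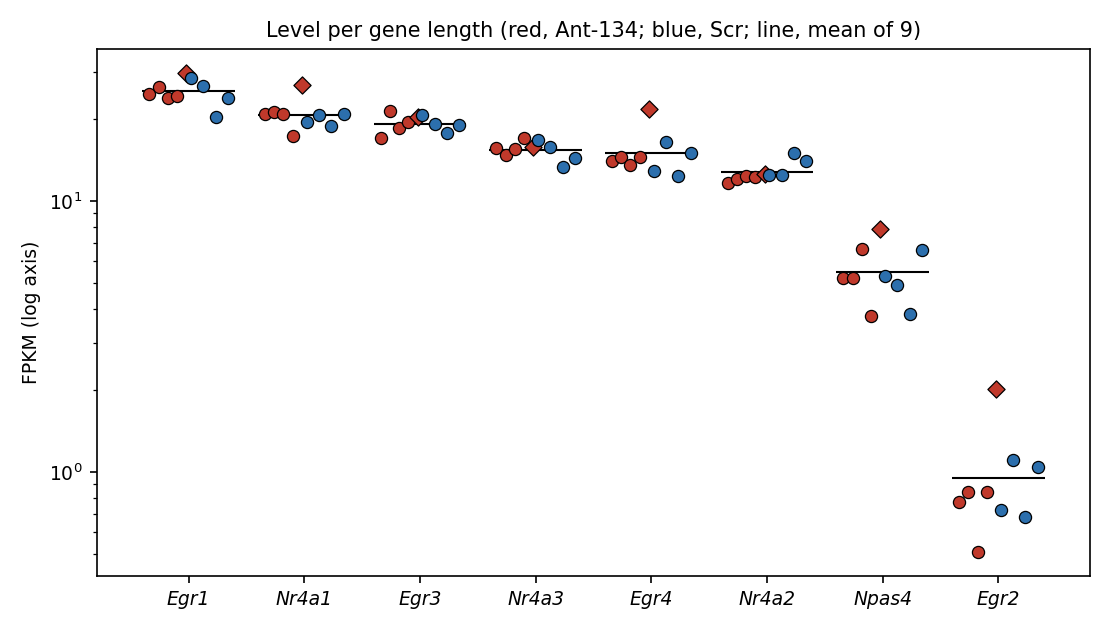
Level per gene length of each gene in the 9 libraries (vertical axis, FPKM on a log axis), in descending order of the mean (line), with Ant-134 in red, Scr in blue and Ant-134 replicate 5 as a diamond. Of the 8 genes, 6 lie between 11.7 and 29.6 FPKM, and Npas4 and Egr2 lie lower in every library.

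Whether the genes moved together was asked with log2 CPM over the 9 libraries, in 28 pairs, each with an exact permutation test over all 362880 pairings and Benjamini-Hochberg adjustment over the 28. In 20 pairs Pearson's r was above 0, and 2 pairs passed adjustment. Egr2 and Egr4 had r = 0.92 (exact permutation p = 0.00147, adjusted 0.0317) and Spearman's rho = 0.95 (exact permutation p = 0.000353, adjusted 0.00988). For this pair r was 0.95 without the 2 libraries farthest from the median of Egr2, and 0.77 without Ant-134 replicate 5. Nr4a1 and Npas4 had r = 0.85 (exact permutation p = 0.00226, adjusted 0.0317) and rho = 0.82 (exact permutation p = 0.0108, adjusted 0.151), with r = 0.67 without the 2 farthest libraries and 0.79 without Ant-134 replicate 5. Among the 8 libraries without Ant-134 replicate 5 none of the 28 pairs passed adjustment (smallest adjusted p = 0.322, exact permutation test), although 3 had an unadjusted p below 0.05, these 2 among them. The correlation of Egr4 with Nr4a1 (r = 0.80, unadjusted exact permutation p = 0.027) rested on that library, since r was 0.30 without it.

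For Nr4a2 and Nr4a3, r was −0.73 (exact permutation p = 0.0269, adjusted 0.189) and rho −0.32 (exact permutation p = 0.41, adjusted 0.772), and r turned to 0.34 without Scr replicates 3 and 4, on which the negative value rests. Over all 28 pairs the median r was 0.31, and 0.13 without Ant-134 replicate 5.

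**Figure D5:**
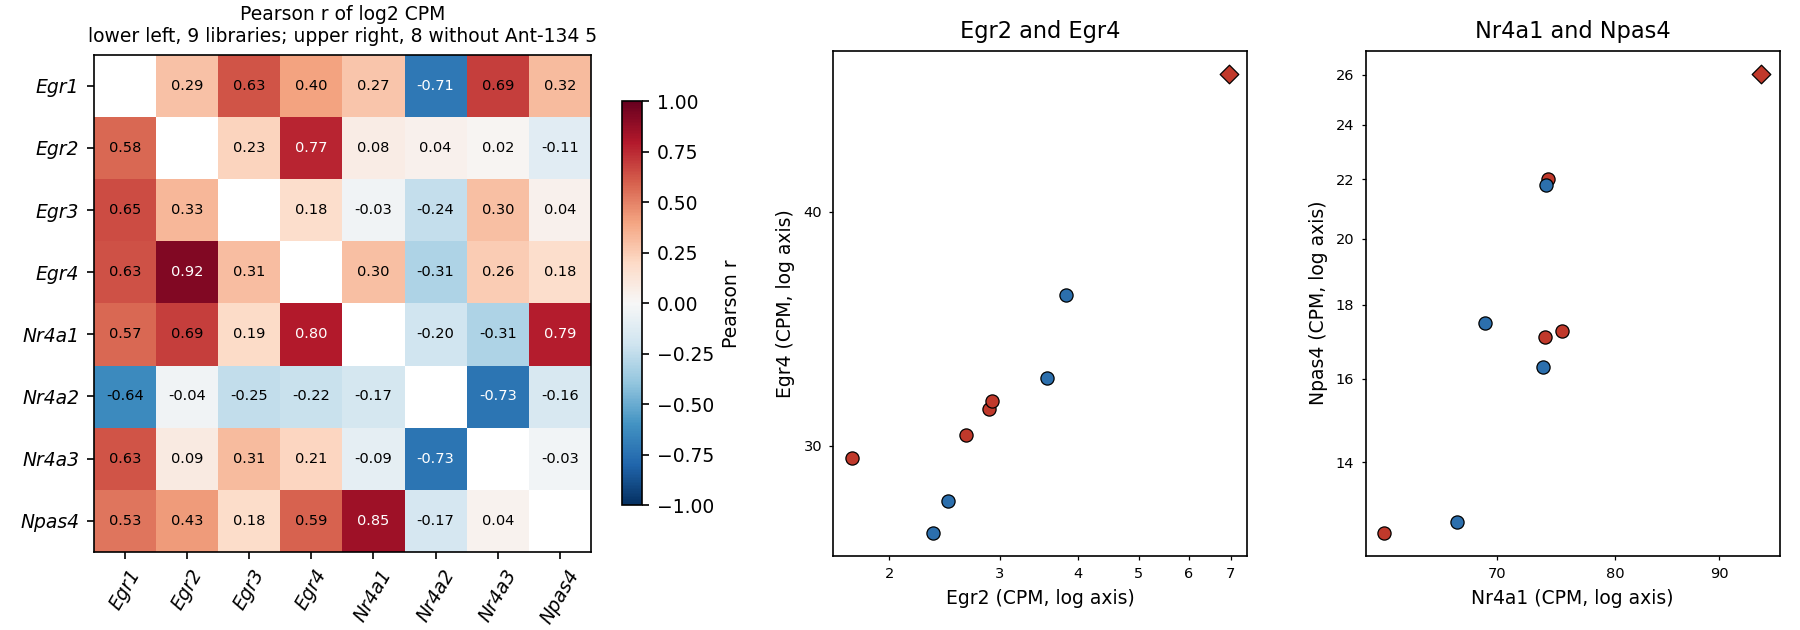
Pearson's r of log2 CPM between the 8 genes (left, lower triangle with all 9 libraries, upper triangle without Ant-134 replicate 5) and the levels of Egr2 with Egr4 and of Nr4a1 with Npas4 in each library (CPM, log axes, Ant-134 in red, Scr in blue, diamond for Ant-134 replicate 5). The pair of Egr2 and Egr4 has r = 0.92, and 0.77 without the diamond.

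Outside the 8 genes, the levels most like theirs were sought among 16018 genes with a mean of at least 1 CPM, by Pearson's r with the mean centred log2 CPM of the 8. Over 9 libraries the highest were Dtwd2 (r = 0.95), Amd1, Hira, Rps19bp1, Prr16, Fos (r = 0.93), Gm37581, Sgsm3, Rpp21 and Fam171a2 (r = 0.92). Over the 8 libraries without Ant-134 replicate 5 they were Rpp21 (r = 0.97), Mybbp1a, Dmac1, Zfp689, Amd1, Rwdd2b, Clk2, Prr16, Gm25047 and Nim1k (r = 0.91). Rpp21, Amd1 and Prr16 were on both lists. These were picked as the highest of many genes over few libraries that share depth and dissection, and are a description.

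The wider pathway was described by lists, whose counts stand beside the 4.18% of all genes that passed the same unadjusted level. Of 30 other immediate early genes, 1 was higher in Ant-134 at an unadjusted p below 0.05 and 0 were lower, with a median log2 fold change of 0.050, and −0.037 without Ant-134 replicate 5. The count moved with single libraries and with the processing. It was 3 without Ant-134 replicate 5 (2 higher, 1 lower) and 3 without Scr replicate 1, 4 without Scr replicate 2, 2 without Ant-134 replicate 3, and 0 without Scr replicate 3 or 4. With all libraries it was 2 with DESeq2, with DESeq2 size factors or with no filter, and 3 with a replicate block. The gene called with all libraries was Dusp6, a dual-specificity phosphatase. It measured 59.4, 59.2, 54.9, 59.3 and 61.5 CPM in Ant-134 and 59.2, 55.2, 47.1 and 48.7 CPM in Scr, overlapping groups with Scr replicates 3 and 4 the lowest (0.17 ± 0.064, SE, edgeR, unadjusted p = 0.022, adjusted p = 0.998), and its difference was 0.15 without Ant-134 replicate 5. Of 16 late response and effector genes, 1 was lower and 0 higher, with a median of 0.019, and 0.0072 without Ant-134 replicate 5. With 1 library left out at a time this median ranged from −0.018 to 0.069. The 1 gene was Baz1a, a subunit of chromatin remodelling complexes, with 2.93, 2.70, 2.46, 4.03 and 3.21 CPM in Ant-134 and 3.85, 4.00, 3.87 and 3.63 CPM in Scr, where Ant-134 replicate 4 alone was above all Scr libraries (−0.33 ± 0.15, SE, edgeR, unadjusted p = 0.047, adjusted p = 0.998). Its difference was −0.34 without Ant-134 replicate 5, and the count of this list was 0 in that fit. The count was also 0 without Ant-134 replicate 1 or 3 or Scr replicate 1, 3 or 4, and 2 without Ant-134 replicate 4. Both lists thus held shares near that of all genes.

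Upstream and beside the 8 genes, 0 of 10 kinase and SRF pathway genes, 0 of 10 CREB and MEF2 genes and 0 of 7 partners and corepressors had an unadjusted edgeR p below 0.05. With lists this short, a count of 0 is near what the 4.18% of all genes would give, and it is no result about them. The first list had 1 call without Ant-134 replicate 5 and 1 without Scr replicate 4. The medians were 0.0032, 0.010 and 0.038 on the log2 scale, and 0.0089, 0.022 and −0.00050 without Ant-134 replicate 5. With 1 library left out at a time they ranged from 0.0049 to 0.038, from −0.0089 to 0.039 and from −0.0053 to 0.042. In the first list the SRF coactivator Mrtfb had 200 ± 3.77 CPM in Ant-134 (SD, n = 5) and 193 ± 6.14 CPM in Scr (SD, n = 4). In the second, the CREB coactivator Crtc1 had 225 ± 7.60 and 226 ± 14.9 CPM, and Mef2d 215 ± 9.92 and 218 ± 7.36 CPM. In the third, Arnt2, the partner with which NPAS4 binds DNA, had 228 ± 19.6 and 231 ± 21.9 CPM, and Rxrb, a partner of NR4A receptors, 82.3 ± 4.75 and 79.6 ± 4.29 CPM. None of these genes passed the unadjusted level in the fit of all 9 libraries.

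The genes lie on 8 chromosomes of GRCm38, and no annotated gene overlaps any of them. The file places Egr1 (ENSMUSG00000038418) at 18:34859823-34864984, Egr2 (ENSMUSG00000037868) at 10:67535475-67542188, Egr3 (ENSMUSG00000033730) at 14:70077203-70082614 and Egr4 (ENSMUSG00000071341) at 6:85511121-85513589. It places Nr4a1 (ENSMUSG00000023034) at 15:101254269-101274795, Nr4a2 (ENSMUSG00000026826) at 2:57106830-57124003, Nr4a3 (ENSMUSG00000028341) at 4:48045153-48086447 and Npas4 (ENSMUSG00000045903) at 19:4984355-4989971. Egr4 has at most 2 exons in a coding transcript and the 3 Nr4a genes 8 each.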

How the data were processed

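Hippocampal poly-A RNA from 5 Ant-134 and 4 Scr mice was sequenced as paired reads. Per the labels and the study's methods, the authors aligned reads to GRCm38 with HISAT2 2.0.5 and deposited a table of raw gene counts from featureCounts 1.5.0-p3 and a table of FPKM. The deposited FPKM equalled values computed from counts and gene lengths up to 1 factor per library. Strandedness of the counting is not given in the sources used here.

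The counts were fitted with edgeR 4.0.16 (R 4.3.3, TMM, filterByExpr with a minimum count of 10, robust quasi-likelihood test, Benjamini-Hochberg over all 19782 genes tested). CPM are counts scaled to each library's total over the genes tested, multiplied by its TMM factor. The log2 values used a pseudocount of 0.1 CPM. The alternatives were DESeq2 1.42.0, its size factors, other filters, a test without robust estimation, a replicate block, a Y-linked covariate, limma 3.58.1 on FPKM of at least 0.1 on average (log2, pseudocount 1 or 0.1), and leaving out each library. Libraries of a group differed by more than counting noise (chi-square per gene at least 7.56).

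The 8 genes and all lists were chosen with earlier results of these data known. Named were the 8 genes, list genes at an unadjusted p below 0.05 or else the 2 most abundant, and the 10 genes most like the 8, with and without Ant-134 replicate 5. One gene within this rule is not reported here. The list genes given for Ant-134 replicate 5, among them Fos, Fosb, Junb, Arc, Homer1 and Atf3, and the marker sums beside results were not named by this rule but picked with their values in view. Sequences are from RefSeq (GRCm38.p6), and the site in Egr3 from GENCODE M21 transcripts.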

Additional observations from a re-analysis of the deposited data

Results flagged for a closer look

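In 32 groups of values (the 8 genes, the named genes of the lists and the library totals, each in Ant-134 and in Scr), the highest or lowest library was set against the range of its group, with Dixon's 95% limit, which chance passes in about 1 group in 20. This singled out 2 values, where chance alone would give 1.6 of the 32. Egr2 in Ant-134 replicate 5 stood at 6.95 CPM, against 1.74 to 2.91 CPM in the other 4 Ant-134 libraries. Egr4 in the same library stood at 47.4 CPM, against 29.5 to 31.7 CPM. Npas4 and Nr4a1 in Ant-134 replicate 5, at 26.04 and 94.4 CPM, were the highest of all libraries but did not pass the limit.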

How the results depend on the processing

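Over the 8 genes, 152 values under alternatives were computed, of which 142 kept the direction and 10 reversed it, and the 16 with an unadjusted p below 0.05 were all Nr4a2. With a replicate block Egr2 was −0.26, Egr3 −0.0040 and Egr4 −2.4e-05, and 2 of all genes passed adjustment. Only Ant-134 has a replicate 5, so the block takes this library out of the group difference. Its reversals therefore repeat those of the fit without Ant-134 replicate 5, where Egr2 was also −0.26. The replicate numbers did not pair the samples (correlation of deviations −0.12 to 0.018, no library closest to its own number). With 1 library left out, Egr1 ranged from −0.032 to 0.12, Egr2 from −0.26 to 0.32, Egr3 from −0.026 to 0.059 and Egr4 from −0.0086 to 0.22, while Nr4a1 (0.0065 to 0.16), Nr4a3 (0.0076 to 0.11), Npas4 (0.011 to 0.29) and Nr4a2 (−0.19 to −0.094) kept their signs. The signs of the first 4 turned without Ant-134 replicate 5 (all of them), without Scr replicate 3 (Egr1 −0.032, Egr3 −0.019) and without Ant-134 replicate 2 (Egr3). Between 0 and 1 of the 8 genes then passed an unadjusted p of 0.05, and 0 to 17 of all genes passed adjustment, the 17 without Ant-134 replicate 1. Without a filter 1775 of all genes passed the unadjusted edgeR level and 14 adjustment. DESeq2 without a prior filter, but with its own default filtering, called 16 after adjustment. The cause of the other changes was not tested. Of the 28 pairs, 4 had an unadjusted exact permutation p below 0.05, 3 without Ant-134 replicate 5 and 6 with deviations from the group means. With 5 and 4 libraries, differences in Egr2 and Npas4, whose spread was the widest, are the least well resolved.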

Other observations

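Among the late response genes that follow the EGR, NR4A and NPAS4 factors, Ant-134 replicate 5 was the highest library for 5 of 16, beside 16.01% of all genes tested. Adcyap1, the gene of the neuropeptide PACAP, stood at 13.7 CPM there and at 4.98 to 11.5 CPM in the other 8 libraries. Scg2, the gene of secretogranin II, stood at 212 CPM against 148 to 195 CPM. Bdnf, the neurotrophin gene, stood at 42.6 CPM, within the 37.6 to 43.9 CPM of the others, and Vgf at 304 CPM, within 225 to 307 CPM. Of the corepressor genes, Nab2, which is itself a target of EGR proteins, was higher by 0.31 on the log2 scale in that library than the mean of the others, and Nab1 was at −0.065. Of the CREB and MEF2 list 0 of 10 genes were highest there, of the kinase and SRF list 3 of 10, and of the partners and corepressors 2 of 7. These genes were chosen after their values were seen, and the values carry no test.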
